A study of Mus musculus with 2 samples.

Results

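The genes described here were 10 splicing factors of the SR protein family and its close relatives, taken by symbol: Srsf1, Srsf2, Srsf3, Srsf5, Srsf6, Srsf7, Srsf9, Srsf10, Srsf11 and Tra2b. They were 10 of the 45578 genes and 74 of the 109463 transcripts in the deposited table. Ribosome footprints, the stretches of mRNA that a translating ribosome shields from nuclease, were counted on polysomes of whole brains from control mice at postnatal day 5. The mice were Smn+/-; SMN2tg/0 on the FVB strain, so the controls themselves carried 1 disrupted mouse Smn copy and a human SMN2 transgene. There was 1 group, with biological replicates 1 and 2 (n = 2) and 1866831 and 5261878 footprints, and no other genotype or age was analysed here.

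SR proteins bind short exonic sequences through RNA recognition motifs and recruit the spliceosome through a tail rich in arginine and serine. Many of their genes limit their own output. When the protein is abundant, splicing includes a "poison" cassette exon with an early stop codon. It can also remove an intron so that the normal stop looks premature. Such RNAs are targets of nonsense-mediated decay, a pathway that needs a ribosome to reach the stop, so these isoforms can meet ribosomes before they are degraded. Other copies keep an intron and often stay in the nucleus. Ensembl marks these isoforms by biotype, as nonsense_mediated_decay or retained_intron, beside protein_coding and processed_transcript.

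The label of poison exons was not checked at the level of exons, because sequences were not used here. The annotation gave decay and retained-intron biotypes for 7 of the 10 genes, and a biotype alone does not show a poison exon. Srsf1, Srsf2, Srsf3, Srsf5, Srsf6, Srsf11 and Tra2b each had at least 1 transcript of the decay class and 1 of the retained-intron class. Srsf7, the factor known as 9G8, was represented by the single coding transcript Srsf7-201. Srsf9 and Srsf10 had coding and processed transcripts, with neither of the other classes in the table analysed here. The 74 transcripts comprised 27 coding, 23 retained-intron, 11 decay and 13 processed transcripts, and 73 of them had a footprint in each library. The exception was Srsf2-005, a processed transcript of Srsf2, which was at 0 in both.

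Of the tissue markers, those of neurons were the most abundant. The 5 neuronal markers had a summed level of 4775 CPM in the first library and 3778 in the second, where CPM gives a count relative to the size of its library. The 4 astrocyte markers summed to 1318 and 1273 CPM and the 3 red cell markers to 1498 and 1055 CPM, while the 3 skeletal muscle markers summed to 77.1 and 54.7 CPM. Of the 3 liver markers, 1 was at 0 in both libraries, and their sums of 583 and 278 CPM lay almost wholly in Ttr, which the choroid plexus of the brain also makes. With a floor of 3 counts, a gene at 0 could have had up to 1.61 CPM in the first library and 0.570 CPM in the second.

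The 10 genes together held 2784 footprints in replicate 1 and 7931 in replicate 2, which was 0.150% ± 0.00113 of each library (SD, n = 2). Their combined level was nearly the same in both brains, at 1491 and 1507 CPM. Srsf5, a factor with paired RNA recognition motifs, and Srsf2, also known as SC35, had the most footprints. Srsf5 had 243 CPM in replicate 1 (Clopper-Pearson 95% interval 221 to 266) and 250.3 CPM in replicate 2 (237 to 264). Srsf2 had 267 CPM (244 to 292) and 209 CPM (197 to 222). The intervals overlapped for Srsf5 and were apart for Srsf2.

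Srsf1, the prototype SR protein SF2/ASF, had 222 CPM in replicate 1 (201 to 245) and 201 CPM in replicate 2 (189 to 213). Srsf3, the smallest member of the family, had 206 CPM (186 to 228) and 185 CPM (173 to 197). Srsf6 had 136 CPM (119 to 153) and 137 CPM (127 to 147). The intervals of the libraries overlapped for each of these 3 genes. Tra2b, a regulator known for promoting inclusion of the SMN2 exon that is often skipped, had 99.1 CPM (85.3 to 114) and 160 CPM (149 to 171). Srsf10, an atypical SR protein that represses splicing when dephosphorylated, had 53.6 CPM (43.6 to 65.2) and 85.5 CPM (77.8 to 93.8). For both of these the intervals lay apart, with replicate 2 higher. Srsf11 had 114 CPM (98.8 to 130) and 148 CPM (138 to 159), Srsf7 had 84.1 CPM (71.5 to 98.3) and 79.1 CPM (71.6 to 87.03), and Srsf9 had 66.96 CPM (55.7 to 79.8) and 53.2 CPM (47.2 to 59.8). Srsf11 was higher in replicate 2 with intervals apart, whereas those of Srsf7 and Srsf9 overlapped. By mean CPM the members lay between percentile 72.8 (Srsf9) and percentile 95.9 (Srsf5) of the 16427 genes tested, those averaging 10 counts or more. The intervals cover counting error only, and they take each count as an independent molecule, which PCR copies are not.

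**Figure D1:**
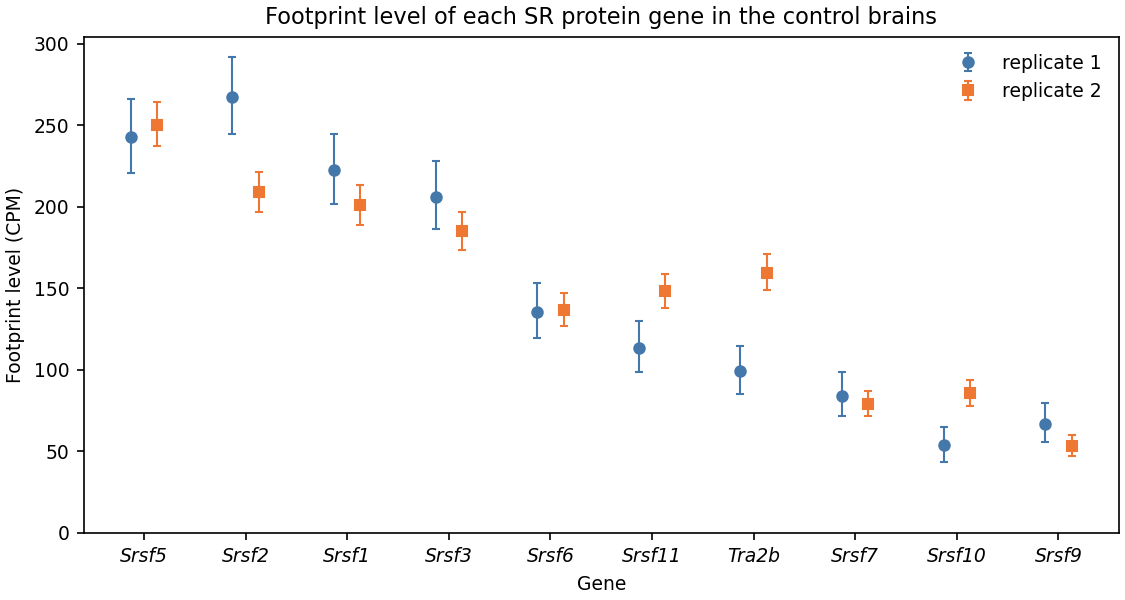
Footprint level (CPM, vertical axis) of the 10 genes in replicate 1 (circles) and replicate 2 (squares), with Clopper-Pearson 95% intervals. Srsf5, Srsf2, Srsf1 and Srsf3 lay highest in both libraries, and Tra2b had 99.1 CPM in replicate 1 and 160 CPM in replicate 2.

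Levels of different genes were set in order per length of the gene's longest transcript, as CPM per kilobase. Srsf2 came first at 141 and 110 CPM per kilobase (mean 125 ± 21.8, SD, n = 2), and Srsf5 second at 69.7 and 71.9. Both libraries of Srsf2 lay above both of Srsf5, and both of Srsf5 above those of Srsf9, at 57.6 and 45.8. From Srsf9 through Srsf3, Srsf11, Srsf1, Srsf6 and Tra2b to Srsf7 (36.9 and 34.7), each gene overlapped its neighbour in the order. Genes farther apart in it did separate: both libraries of Srsf9 and of Srsf3 (51.7 and 46.4) lay above those of Srsf1 (41.5 and 37.5), Srsf6 (38.4 and 38.8) and Srsf7. Srsf10 was last at 14.3 and 22.8 CPM per kilobase, below both libraries of Srsf7. The order depended on the length used. For Srsf3 and Srsf5 the longest transcript was of the retained-intron class (Srsf3-003, 3986 nt, and Srsf5-007, 3482 nt). Untranslated regions make up most of several of the coding transcripts. Per kilobase of the longest annotated coding sequence, an alternative chosen after the data were seen, Srsf3 came first at 417 and 374, followed by Srsf2 at 401 and 314, Srsf5 at 298 and 308 and Srsf1 at 292 and 264. These 4 lay above the other 6, whose highest library was Tra2b in replicate 2 at 184.

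The members' footprints fell outside coding transcripts more than those of the library as a whole. Coding transcripts took 55.8% ± 0.261 of the members' footprints (SD, n = 2), where they took 75.5% ± 1.09 of all footprints. Retained-intron transcripts took 23.1% ± 0.110 of the members' footprints and 9.36% ± 0.387 of all, and decay transcripts took 15.8% ± 0.221 and 3.97% ± 0.383. Processed transcripts took 5.28% ± 0.150 and 5.59% ± 0.271. These values describe which annotated transcripts were credited with a footprint. The annotation itself differed: 7 of the 10 members had coding transcripts with retained-intron or decay transcripts, as did 6196 of the 16427 genes tested. The part of this in the contrast was not tested. Isoforms of a gene share exons, so a footprint credited to a decay or retained-intron transcript may come from an exon it shares with the coding transcript, and the share of such footprints was not tested.

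The 7 genes with all 3 classes were compared through the share of footprints on retained-intron and decay transcripts out of coding, retained-intron and decay transcripts together. The shares ranged from 27.0% to 70.5%, with a median of 46.6%. The background was all 6196 genes that averaged 10 counts or more and had coding transcripts with retained-intron transcripts, decay transcripts or both. Over these genes the median was 25.7% (quartiles 12.4% and 41.8%). Unlike the 7 members, they need not have all 3 classes, and a background limited to genes with all 3 was not analysed here. All 7 members lay above that median and 4 of 7 above the upper quartile. The median percentile of the 7 was 80.8, and it was 79.9 and 82.1 with minimum mean counts of 1 and 100.

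Srsf3 had the largest share. Its gene spans 29032660 to 29043372 on chromosome 17 (RefSeq, GRCm38.p6). The share was 69.6% in replicate 1 (95% interval 64.7 to 74.2) and 71.4% in replicate 2 (68.5 to 74.3), at percentile 97.7 of the genes compared. The coding transcript Srsf3-001 held 117 and 278 footprints. The decay transcript Srsf3-002, whose annotated coding sequence is 375 nt long against 495 nt in Srsf3-001, held 88 and 267. The retained-intron transcript Srsf3-003 held 106 and 252, so that the 3 transcripts had similar counts in each library. Retained-intron transcripts took 45.4% ± 1.96 and decay transcripts 25.1% ± 3.24 of all Srsf3 footprints (SD, n = 2). The pseudogene Srsf3-ps, listed as Gm12355, had 70 and 165 footprints. The treatment of fragments that match both copies is not given, so the Srsf3 counts and share are uncertain by an amount that was not tested.

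Srsf6, an SR protein with paired RNA recognition motifs, came next, at 64.0% in replicate 1 (57.8 to 69.9) and 59.7% in replicate 2 (56.04 to 63.3). The gene spans 162931508 to 162937121 on chromosome 2. Its leading transcripts had similar counts, with 73 and 246 on the coding transcript Srsf6-001, 81 and 220 on the decay transcript Srsf6-002, and 81 and 210 on the retained-intron transcript Srsf6-004. Srsf6-002 has an annotated coding sequence of 408 nt, which is 40% of the 1020 nt of Srsf6-001. A short coding transcript, Srsf6-003, has the same coding length of 408 nt but held 18 and 44 footprints. Of the footprints on the 2 transcripts with this coding length, Srsf6-002 took 81.8% (72.8 to 88.9) and 83.3% (78.3 to 87.6). The whole transcript Srsf6-002 is longer, at 1666 nt against 515 nt in Srsf6-003, and these percentages were not adjusted for that.

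Tra2b, which spans 22244552 to 22266005 on chromosome 16, had a share of 48.3% in replicate 1 (40.7 to 55.9) and 44.8% in replicate 2 (41.4 to 48.3). The decay transcript Tra2b-003 held 48 and 224 footprints, close to the 53 and 247 of the leading coding transcript Tra2b-001. The annotated coding sequence of Tra2b-003 is 117 nt, against 867 nt in Tra2b-001. It is 13.5% of that length, and the annotated 3' untranslated region is 1420 nt. The footprints on Tra2b-003 came to 0.410 and 1.91 per nucleotide of its coding sequence, where Tra2b-001 had 0.0611 and 0.285. The table does not record where on a transcript a footprint lay, so how many were inside the 117 nt was not analysed here.

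Srsf2 spans 116849897 to 116853675 on chromosome 11 and is known for decay isoforms that arise by splicing in the 3' untranslated region. Its share was 38.9% in replicate 1 (34.6 to 43.3) and 40.4% in replicate 2 (37.5 to 43.4). The decay transcript Srsf2-002 carries the full coding length of 666 nt, as do the coding transcripts Srsf2-001 and Srsf2-201. The 3 held 148, 164 and 141 footprints in replicate 1, and 333, 338 and 317 in replicate 2. Srsf2-002 thus took 32.7% (28.4 to 37.2) and 33.7% (30.8 to 36.7) of the footprints on these transcripts, where an equal split would give 33.3%. The other decay transcript, Srsf2-003, with a coding sequence of 59 nt, held 6 and 7 footprints. When decay transcripts with the coding length of a coding transcript were counted as coding, a setting chosen after the data were seen, the share of Srsf2 was 9.66% and that of Srsf6 was 30.6%. Srsf6-002 has the coding length of the short coding transcript Srsf6-003 and not of the longer one. Srsf2 overlaps Mfsd11 in the RefSeq annotation, and Srsf9 overlaps Gatc. The use of strand is not given in the sources used here, so footprints of the overlapping parts cannot be assigned to 1 gene.

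In Srsf5, Srsf11 and Srsf1, as in Srsf3, the retained-intron class held more footprints than the decay class. Srsf11, an SR-related protein known to bind U2AF, had a share of 53.8% in replicate 1 (46.8 to 60.6) and 54.3% in replicate 2 (50.7 to 57.8). Its 11 retained-intron transcripts took 46.9% ± 2.40 of its footprints (SD, n = 2), and its 3 decay transcripts took 7.15% ± 2.78, with 11 footprints in replicate 1. Srsf5 had a share of 38.5% (33.7 to 43.5) and 37.4% (34.6 to 40.2), with 28.8% ± 1.70 of all its footprints on retained-intron transcripts and 4.62% ± 1.59 on its decay transcript Srsf5-010. That transcript held 26 and 46 footprints. The 5 coding transcripts of Srsf5 differ by 3 nt in coding length, and held 38 to 59 footprints in replicate 1 and 130 to 161 in replicate 2.

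Srsf1 had the smallest share among the 7, at 25.8% (21.6 to 30.3) and 28.3% (25.6 to 31.1). It lay at percentile 52.5, near the middle of all genes. This place depended on length: with each transcript's count divided by its length first, the Srsf1 share was 55.3%, and Srsf5 (33.5%) and Srsf2 (42.9%) had the smallest. Its decay transcripts Srsf1-002 and Srsf1-005 held 19 and 8 footprints in replicate 1, and 72 and 24 in replicate 2. The retained-intron transcript Srsf1-007, of 645 nt, held 60 and 140. Its 3 coding transcripts held 90 to 116 footprints in replicate 1 and 246 to 265 in replicate 2.

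The 3 genes without decay or retained-intron transcripts in the table were described by their other isoforms. Srsf7 had 157 and 416 footprints, all on its 1 transcript, whose coding sequence is 717 nt long. In Srsf9, known as SRp30c, the processed transcripts Srsf9-002 and Srsf9-003 held 24 and 16 footprints in replicate 1 and 52 and 40 in replicate 2, or 32.4% ± 0.606 of the gene's footprints (SD, n = 2). In Srsf10 the 6 processed transcripts took 34.9% ± 1.26, with the remainder on 4 coding transcripts that held 6 to 23 footprints in replicate 1 and 49 to 90 in replicate 2. Processed transcripts also took 11.9% ± 2.17 of the Srsf5 footprints and 4.63% ± 0.325 of those of Tra2b. Processed transcripts have no annotated reading frame, and they too may overlap coding exons.

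**Figure D2:**
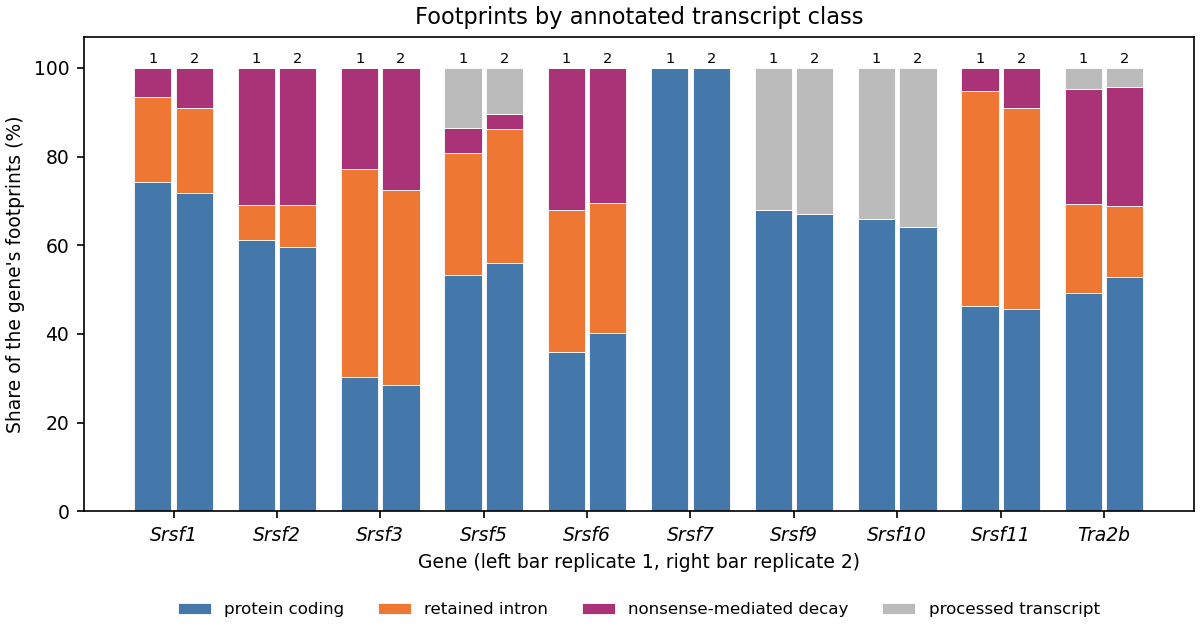
Share of each gene's footprints (%, vertical axis) on coding, retained-intron, decay and processed transcripts, with replicate 1 in the left bar and replicate 2 in the right bar of each pair. The coding part was smallest for Srsf3, at 29.5% ± 1.29 (SD, n = 2), and largest for Srsf7, which had no other class.

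Taken by class, the retained-intron share of the gene's footprints was 28.8% at the median of the 7 members, against 15.6% at the median of 5582 genes with that class. It was above the median of all genes in 6 of 7 members and above the upper quartile of 28.3% in 4. Srsf2 was the exception below the median, at 8.74% ± 1.02 (SD, n = 2). The decay share was 25.1% at the median of the members, against 19.8% at the median of 2608 genes. Above the median of all genes were 4 of 7 members, and Srsf6, at 31.3% ± 1.03 (SD, n = 2), lay at the upper quartile of 31.3%. Srsf2, Srsf3, Srsf6 and Tra2b had decay shares from 25.1% to 31.3%, while Srsf1, Srsf5 and Srsf11 had 4.62% to 7.79%, so the members fell on both sides of the median.

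**Figure D3:**
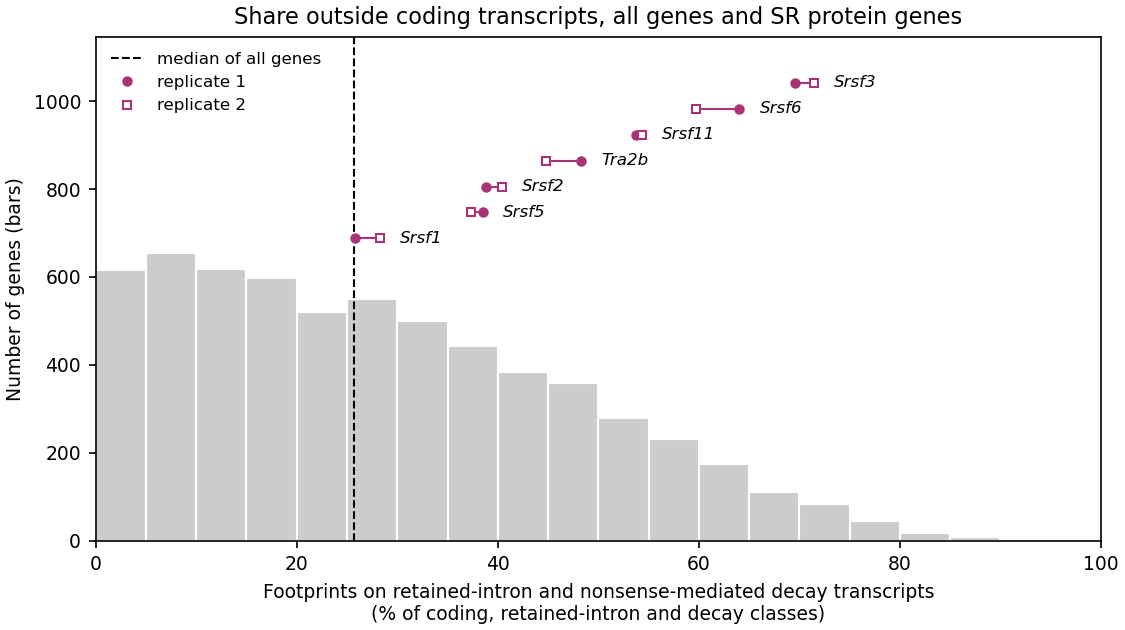
Share of footprints on retained-intron and decay transcripts (%, horizontal axis) for 6196 genes (bars, number of genes on the vertical axis) and for 7 SR protein genes in replicates 1 and 2 (points, placed above the bars with no vertical meaning). All 7 lay to the right of the median of all genes, 25.7%, and Srsf1 lay closest to it.

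The number and length of annotated isoforms differ between genes, so the shares were set beside the annotation. Retained-intron and decay transcripts made up 80% of the transcripts of Srsf3 and 75.02% of its annotated nucleotides, beside 70.5% of its footprints. For Srsf6 they made up 53.03% of the nucleotides and 61.9% of the footprints, for Tra2b 43.2% and 46.6%, and for Srsf1 22.1% and 27.0%. In these 3 genes the share of footprints exceeded the share of nucleotides. In Srsf2 (53.9% and 39.6%), Srsf5 (56.1% and 37.9%), Srsf11 (64.4% and 54.04%) and Srsf3 it was lower. Among all 6196 genes the share of footprints exceeded that of nucleotides in 24.2%, and the median shares were 33.7% of nucleotides and 25.7% of footprints.

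Footprint density, the count per nucleotide of the whole transcript with its untranslated regions, takes length into account. For each gene the retained-intron or decay transcript with the most footprints was set against the coding transcript with the most. Over 2578 genes the median ratio for decay transcripts was 1.01 (quartiles 0.737 and 1.42), and over 5528 genes the median for retained-intron transcripts was 0.675 (0.384 and 1.05). For the 7 members the decay ratio had a median of 1.14, and 5 of 7 were above 1, a threshold passed by 50.9% of all genes. The ratio was 2.35 in replicate 1 and 1.89 in replicate 2 for Srsf6-002, and 1.94 in both for Tra2b-003. It was 1.01 and 1.28 for Srsf3-002, and 1.28 and 1.40 for Srsf2-002. Srsf5-010 (1.36 and 0.779) and Srsf11-008 (0.501 and 1.05) lay on both sides of 1, and Srsf1-002 was below it at 0.539 and 0.959.

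These ratios depended on the coding transcript chosen. The densest coding transcript was also used, a setting chosen after the data were seen. It was run for the members only, so no share over all genes is given. Against that transcript, 3 of 7 decay transcripts exceeded 1 in both libraries. They were Srsf6-002 (1.39 and 1.55, against Srsf6-003 with only 18 footprints in replicate 1), Srsf3-002 (1.01 and 1.28) and Srsf2-002 (1.04 in both). Tra2b-003 was at 1.09 and 0.984 against Tra2b-006, whose 27.2 CPM per kilobase in replicate 2 was close to its own 26.8.

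The retained-intron ratio of the members was more spread, from 0.289 to 2.48, with 4 of 7 above 1 where 27.0% of all genes were. Srsf1-007 had the highest, at 2.36 and 2.59, and was denser than the leading coding transcript Srsf1-003, whose 2948 nt include 2221 nt of 3' untranslated region. Tra2b-005 had ratios of 1.63 and 2.001, Srsf6-004 of 1.35 and 1.04, and Srsf11-014 of 1.13 and 1.32. Srsf3-003 (0.583 and 0.584), Srsf5-005 (0.569 and 0.562) and Srsf2-004 (0.255 and 0.322) were less dense than the coding transcript in both libraries. Against the densest coding transcript, 0 of 7 exceeded 1 in both libraries, again with no share over all genes to set beside it. Srsf1-007 was then at 1.25 and 0.990 against Srsf1-006, Tra2b-005 at 0.917 and 1.01 against Tra2b-006, Srsf6-004 at 0.80 and 0.848, and Srsf11-014 at 0.757 and 0.869.

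**Figure D4:**
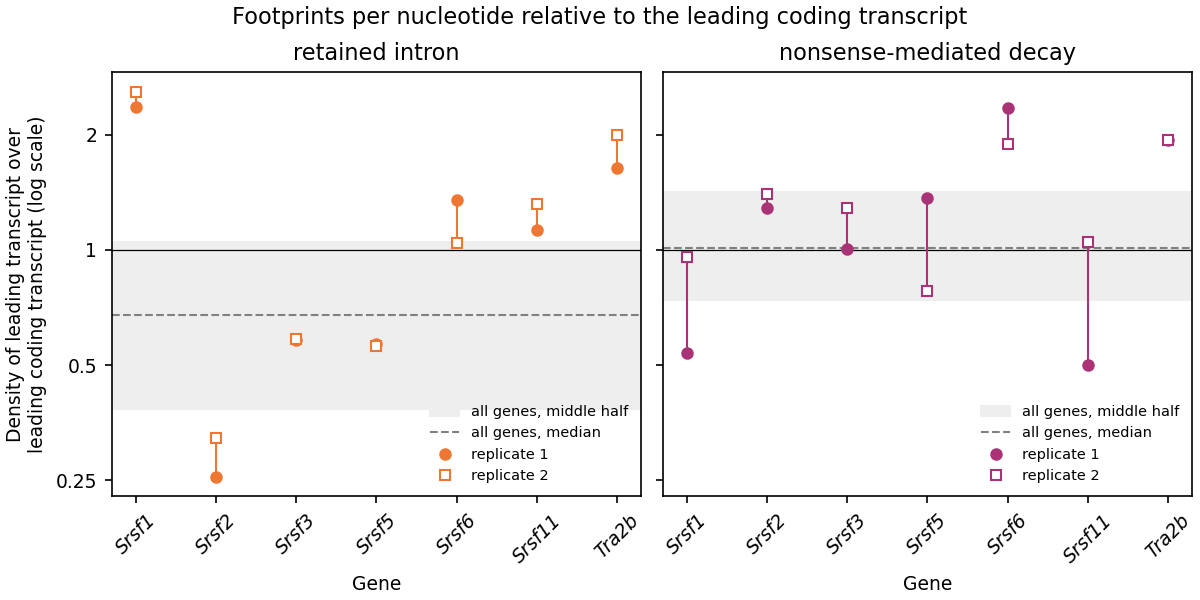
Footprints per nucleotide of the leading retained-intron (left) or decay (right) transcript over those of the leading coding transcript (log scale, vertical axis) in replicate 1 (circles) and replicate 2 (squares), with the median and the range between quartiles of all genes (dashed line and band). Srsf6 and Tra2b lay above 1 in both panels and both libraries, though against their densest coding transcript only Srsf6-002 did so, and the retained-intron transcript of Srsf2 lay lowest at 0.255 and 0.322.

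The split of counts between coding and other classes did not differ detectably between the brains. The treatment of fragments on exons that the classes share is not given. A fixed rule would divide them alike in both libraries, so the comparison cannot show that isoform use was the same. Fisher's exact test (two-sided, Benjamini-Hochberg over 6167 genes with a summed class count of at least 20) called 0 of 7 members, with 0 at an unadjusted p under 0.05. Among all genes it called 1 (0.0162%), the gene Ptov1, with 291 at an unadjusted p under 0.05, so the members' count was near the background. Ptov1 was named after its value was seen. The difference, replicate 2 minus replicate 1, ranged over the members from -4.31 percentage points in Srsf6 to 2.50 in Srsf1. The Srsf6 shares rested on 253 and 720 footprints (p = 0.232 in the exact test), and a difference of that size was not detectable at this depth.

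Levels of several members differed between the replicates in a test that takes each count as independent. Each gene's pair of counts was compared with a two-sided exact binomial test under TMM scaling (trimmed mean of M values). It covers counting noise between 2 libraries and not the variation among animals. The treatment of duplicates and of fragments that match several isoforms is not given, so a call may not lie beyond counting noise. The test called 6 of the 10 members, where it called 17.4% of all genes tested. On the highest transcript per gene it called 3 of the 10 members and 1444 of 15353 genes. All 10 members averaged over 100 counts, and with that as the minimum the test called 33.9% of genes and 7 of the 10 members. Higher in replicate 2 were 2 members (5.95% of all genes) and lower were 4 (11.5% of all genes). The median log2 ratio of the members was -0.16 and that of all genes 0.01. In whole brain, fewer cells of a type and less RNA per cell cannot be told apart, and RNA abundance was not analysed here, so a difference in level is not one in translation rate.

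Tra2b had 185 footprints in replicate 1 and 840 in replicate 2, a log2 ratio of 0.56 (95% interval 0.33 to 0.80; exact binomial test, adjusted p = 1.68e-05). Srsf10 had 100 and 450 footprints, with a log2 ratio of 0.54 (0.23 to 0.88; exact test, adjusted p = 0.00434). These 2 members were higher in replicate 2, under TMM scaling, library totals and DESeq2 size factors. Srsf11 had 212 and 779 footprints and a log2 ratio of 0.26 (0.04 to 0.48) that missed the threshold (adjusted p = 0.100 in the exact test). In the same exact test it passed with library totals (0.38, adjusted p = 0.00519), with a minimum mean count of 100 (0.30, adjusted p = 0.0219) and with the density trend removed (0.30, adjusted p = 0.0465).

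Srsf2 had the lowest ratio. It held 499 and 1099 footprints, a log2 ratio of -0.48 (-0.64 to -0.33; exact binomial test, adjusted p = 4.97e-08). Srsf9 had 125 and 280 footprints and a log2 ratio of -0.45 (-0.77 to -0.14), Srsf3 385 and 973 with -0.28 (-0.46 to -0.11), and Srsf1 415 and 1057 with -0.27 (-0.44 to -0.11). Their adjusted p-values in the exact test were 0.0261, 0.0109 and 0.0111. With library totals the calls of Srsf9, Srsf3 and Srsf1 were lost (adjusted p 0.135, 0.219 and 0.233 in the exact test), because TMM scaling moved every log2 ratio by -0.13. With the trend of the ratio against footprint density removed, Srsf2 was at -0.15 and was lost as well (adjusted p = 0.195 in the exact test); it was the densest member. Srsf5 (-0.08, -0.24 to 0.08), Srsf6 (-0.11, -0.32 to 0.10) and Srsf7 (-0.21, -0.48 to 0.06) did not pass, and their intervals allowed differences of up to the bounds given. An exact test in edgeR that takes a common dispersion from the same pair of libraries called none of the 10 and 11 genes in all.

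**Figure D5:**
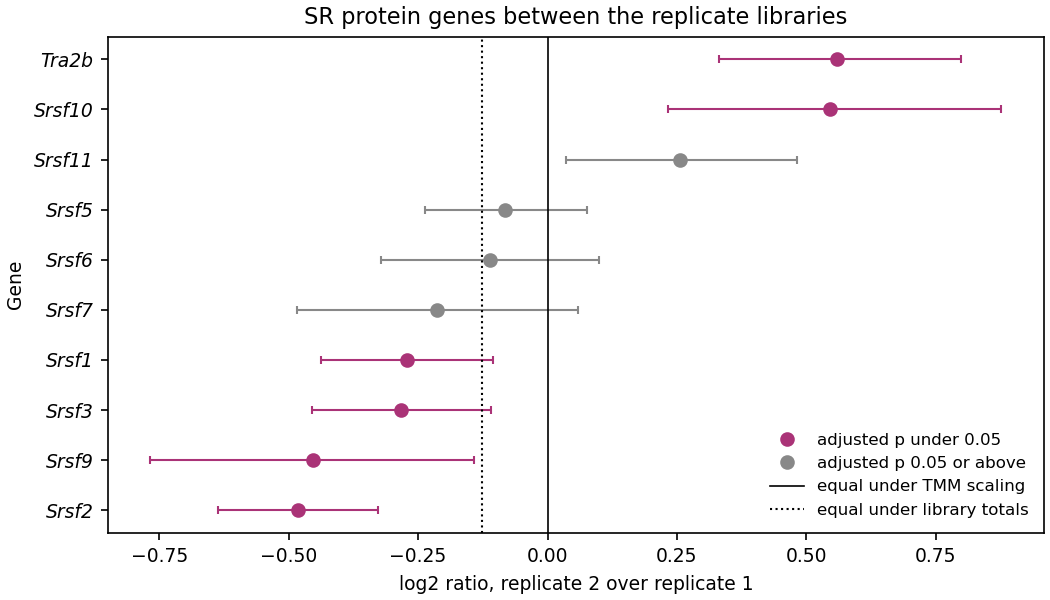
Log2 ratio of footprint counts, replicate 2 over replicate 1 (horizontal axis), for the 10 genes with Clopper-Pearson 95% intervals; coloured points passed the exact binomial test. Tra2b and Srsf10 lay at 0.56 and 0.54 and Srsf2 at -0.48, and the dotted line at -0.13 marks equality under library totals.

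The same comparison by transcript covered 67 of the members' 74 transcripts, those averaging 10 counts or more. It called 5 of them (7.46%), all lower in replicate 2, where it called 6.15% of the 43655 transcripts tested (5.48% lower and 0.662% higher), so the share was near the background. They were Srsf1-003, Srsf2-001, Srsf2-002, Srsf2-201 and Srsf9-001. In Srsf2 the decay transcript and both coding transcripts were lower together, with log2 ratios of -0.51 for Srsf2-002, -0.63 for Srsf2-001 and -0.51 for Srsf2-201. In Tra2b, Tra2b-001 and Tra2b-003 both had a log2 ratio of 0.53, though neither passed alone (adjusted p 0.135 and 0.180 in the exact binomial test). Isoforms share exons and the treatment of fragments that match several is not given, so ratios within a gene may not be independent. In Srsf9 the leading coding transcript Srsf9-001 had 77 and 138 footprints and a log2 ratio of -0.83, while the shorter coding transcript Srsf9-004 had 8 and 50. With library totals 5 of the members' transcripts were called, 2 lower and 3 higher, where 4.35% of all transcripts were called, 2.63% lower and 1.72% higher.

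Other genes of the pathway were taken from lists chosen with the members. Of 14 other SR proteins and relatives, all tested, 3 were higher and 1 lower in replicate 2. Rbm39, a U2AF-related splicing factor, had 257 and 1244 footprints and a log2 ratio of 0.65 (adjusted p = 2.33e-10 in the exact binomial test), Son, a scaffold of nuclear speckles, 0.48, and Luc7l3, a U1-associated protein, 0.38. Of the kinases, import factor and partners of SR proteins, 10 of 11 were tested, with Clk1 higher at 1.34 and Clk3 lower at -0.55; both phosphorylate the arginine-serine tail. Among 10 nonsense-mediated decay factors, Upf3a was lower at -0.56 and the other 9 did not pass. None of 5 exon junction proteins was called. Of 7 proteins of the U1 snRNP and 3' splice site, 2 were lower, Snrnp70 at -0.83 and U2af2 at -0.27. Of 13 other RNA-binding proteins known for unproductive splicing, 6 were higher and 3 lower, the largest being Tial1 at 0.65, Tardbp at 0.53 and Tia1 at 0.53.

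The share of footprints on retained-intron and decay transcripts was set beside the members for the same lists, without a test of the difference. It had a median of 24.2% over 8 other SR proteins and relatives, within which the SR protein Srsf4 had 53.1% ± 0.158 and the scaffold Srrm2 had 9.36% ± 0.765 (SD, n = 2). Over 11 of the other RNA-binding proteins with unproductive splicing the median was 39.2%, and all 11 lay above the median of all genes, as the 7 members did. Over 7 kinases and partners it was 49.5%, led by Clk1 at 78.2% ± 6.11. Over 5 decay factors it was 25.0%. The class split of these lists differed between the replicates in 0 genes by Fisher's exact test.

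Genes with a class profile nearest to the members' median profile were sought among 1308 others with all 3 classes and an average of 100 counts or more. The members' median profile was 53.4% coding, 30.6% retained intron and 25.1% decay, taken class by class. The nearest genes by Euclidean distance over the mean of the 2 libraries were Man2c1, Dopey1, Mat2b, Actl6a and Ubl4. The distances are not given, because class medians taken separately need not add up to the whole as the profile of a gene does. The choice of nearest genes has the same limit. Decay transcripts took 4.62% to 7.79% of the gene's footprints in Srsf1, Srsf5 and Srsf11. They took 25.1% to 31.3% in the other members with this class, so a gene near the median profile need not resemble any member. Man2c1 had 49.9% coding, 27.9% retained intron and 22.2% decay.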

How the data were processed

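Ribosome-protected fragments of 25 to 35 nt were prepared from pooled polysomal fractions of 2 control brains, per the labels' protocols. The authors deposited 1 table of raw, whole-number counts per transcript, with annotated lengths and biotypes. Trimmomatic 0.36, Bowtie2 2.2.6, SAMtools and build GRCm38.p4 are named in the submitters' processing notes; the treatment of strand, duplicates and fragments that match several isoforms is not given in the sources used here. Such fragments bear directly on the class shares.

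Symbols were transcript names without the trailing number (1 gene identifier each), and transcripts were summed per gene. Each symbol matched 1 RefSeq gene of GRCm38.p6, used for positions and overlaps; patch releases leave chromosome coordinates unchanged. Sequences were not used here. TMM factors (edgeR 4.0.16) were 0.957 and 1.04. With 1 group there was no contrast for a quasi-likelihood test. Exact binomial, Fisher and Clopper-Pearson calculations used SciPy 1.17.1, adjusted p under 0.05 was called, log2 ratios had a prior of 0.5 CPM, and the tests were tested on simulated data. P-values cover counting error between 2 libraries, with each count taken as independent.

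Members and lists were chosen with earlier results of these data known. Named were all members, their leading transcript per class, up to 3 called genes per list with the largest ratio, and the 5 nearest class profiles; other transcripts, Srsf4, Srrm2 and Clk1's share were named after their values were seen. Alternatives covered scaling, filters, transcript classes, length, the trend of the ratio over 20 strata of density, and leaving out a replicate.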

Additional observations from a re-analysis of the deposited data

How the results depend on the processing

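No paired analysis was possible because the study has 1 group. The median share of footprints on retained-intron and decay transcripts, 46.6%, was 49.0% with processed transcripts added, 57.4% per nucleotide and 37.9% with decay transcripts that match the coding length of any coding transcript counted as coding; it ranged from 44.8% to 48.3% when a replicate was left out. It stayed at 46.6% with gene identifiers as the key and with transcripts under 10 counts left out. The members' median level of 133 CPM was 63.3 CPM on coding transcripts alone, by construction, and ranged from 125 to 154 CPM without a replicate. The exact binomial test called 2861 genes, 34.2% of them higher in replicate 2, and 3123 with library totals, 60.7% higher. For transcripts the share higher was 10.8% of 2683 with TMM and 39.6% of 1901 with library totals. The number of genes called was 1444 with the highest transcript per gene and 11 with edgeR's exact test. Srsf5 changed sign with library totals (0.045), the highest transcript (0.062), coding transcripts alone (0.024) and the density trend removed (0.088). Srsf6 changed sign with the first 3 of these settings (0.014, 0.20 and 0.079). No other member changed sign in this test, and neither of these 2 was called in any setting. Of the 6 members called, the highest transcript per gene lost Srsf1, Srsf3 and Srsf10 (adjusted p 0.0568, 0.294 and 0.581 in the exact test). Coding transcripts alone lost Srsf3 and Srsf9 (0.138 and 0.0917). Removing the density trend lost Srsf2, Srsf3 and Srsf9 (0.195, 0.189 and 0.134), and a minimum mean count of 1 lost Srsf9 (0.0579). Fisher's exact test called 3 genes with retained introns alone, 6 with processed transcripts added, 2 with a minimum sum of 100, and 0 with decay transcripts alone, where 110 had an unadjusted p under 0.05. With retained introns alone the class difference changed sign in Srsf5 (0.68 points) and Srsf11 (-1.53 points). No member was called in these settings. The causes were not tested. Depth limits the decay transcripts of Srsf1, Srsf5 and Srsf11 most, at 11 to 27 footprints per gene in replicate 1.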
